A study of Rattus norvegicus with 12 samples.

Results

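The microRNAs miR-192, miR-194 and miR-802 of rat serum were followed after caffeine, dextromethorphan or both drugs. The 5 members are the mature rat microRNAs rno-miR-192-5p, rno-miR-192-3p, rno-miR-194-5p, rno-miR-194-3p and rno-miR-802-5p, written here without the species prefix. They were chosen by name, and rows that carry the same name were summed, which took 6 of the 836 rows of the table, or 5 of its 752 mature names. The animals were 7-week-old male Sprague-Dawley rats of the stock Jcl:SD. The 4 groups were caffeine (180 mg/kg) followed after 1 h by dextromethorphan hydrobromide monohydrate (200 mg/kg), dextromethorphan alone and caffeine alone at these doses, and a control that received the vehicle, sterile water. Each drug was given by mouth as a single dose. Blood was drawn under anaesthesia 1 h after dextromethorphan; for caffeine alone and vehicle the labels state no separate time of bleeding. The design gives 5 rats per group, and 3 libraries per group were analysed here. They are named as the table's columns name them, CAFDEX, DEX, CAF and ctrl with a number. The labels do not tie libraries to separate rats, and p-values therefore reflect the spread among the libraries, which may be technical.

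MicroRNAs are short RNAs that are cut from hairpin precursors as a 5p and a 3p arm. They lower the output of messenger RNAs that pair with their seed, the bases near the 5′ end. The genes of miR-192 and miR-194 lie together in clusters, and both microRNAs are abundant in liver, intestine and kidney, where hepatocyte nuclear factors drive the cluster. miR-802 is a microRNA of liver, intestine and pancreas that has been linked in mice to glucose control. Serum carries microRNAs released by many tissues, so a serum level names no source, and more releasing cells cannot be told apart from more RNA per cell.

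Mature sequences are shown because the seed decides which messenger RNAs a microRNA can pair with, and because miR-192-5p has a close relative. They are RefSeq sequences of the rat build GRCr8, written 5′ to 3′, with the seed (bases 2 to 8) in capitals.
miR-192-5p: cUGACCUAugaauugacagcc
miR-215: aUGACCUAugauuugacagaca
miR-192-3p: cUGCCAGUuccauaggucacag
miR-194-5p: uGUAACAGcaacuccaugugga
miR-194-3p: cCAGUGGGgcugcuguuaucu
The seed of miR-192-5p is shared with miR-215, which matches it at 18 of 21 positions counted from the 5′ end. miR-215 was not analysed here. The seed of miR-192-3p is shared with miR-3084c-3p, and the seeds of both miR-194 arms belong to no other name among the 693 mature names of the RefSeq table. Of the 5 members, 4 matched that table, and miR-802-5p is given by name.

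The hairpins show why the miR-194-5p value is a sum. The files place miR-194-5p on the plus strand of chromosome 1 at 1:221634800-221634821 and again on chromosome 13 at 13:103250590-103250611 (build rn6, per the submitters' processing notes). Capitals in the RefSeq hairpins (GRCr8) mark the mature arms that matched letter for letter.
Mir194-2, chromosome 1: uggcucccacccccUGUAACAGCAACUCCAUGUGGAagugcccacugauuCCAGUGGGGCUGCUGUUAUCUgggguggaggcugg
Mir194-1, chromosome 13: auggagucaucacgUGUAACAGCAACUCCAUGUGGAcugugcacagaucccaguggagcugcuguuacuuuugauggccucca
Mir192, chromosome 1: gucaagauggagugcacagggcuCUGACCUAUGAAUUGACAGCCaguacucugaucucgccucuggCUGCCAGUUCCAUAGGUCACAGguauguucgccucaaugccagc
Both miR-194 hairpins hold the identical 5p arm, so reads of that arm alone could not be assigned to a copy, whereas the sequence of miR-194-3p was found in the chromosome 1 hairpin alone. The chromosome 1 row took 50.5% to 52.0% of the miR-194-5p reads in the 12 libraries, an excess of 2 to 10 reads over the chromosome 13 row. On chromosome 1 the start of miR-192-5p (1:221634994-221635014) lies 194 bases from that of miR-194-5p. miR-194-3p is at 1:221634836-221634856, miR-192-3p at 1:221635037-221635058 and miR-802-5p at 11:33570272-33570292, all on the plus strand.

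Levels are FPKM, fragments per kilobase scaled by the authors to a common total over the microRNAs of the table. Assigned reads, recovered from the FPKM steps, numbered 758290 to 1160717 per library after both drugs, 403913 to 895792 after dextromethorphan, 1504963 to 1842796 after caffeine and 1304868 to 2625593 in control. DEX2 and DEX3 were the shallowest libraries. They also had the highest values of the haemolysis index, at -5.13 and -5.26. This index is log2 of miR-451-5p, which red cells carry, over miR-23a-3p. The index averaged -6.00 ± 0.40 after both drugs, -5.62 ± 0.74 after dextromethorphan, -6.75 ± 0.35 after caffeine and -7.56 ± 0.39 in control (SD, n = 3 each). The main results are given with and without these 2 libraries.

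All 5 members were higher after dextromethorphan than in control. The rise was 12.5-fold for miR-802-5p, 10.5-fold for miR-194-5p and 7.95-fold for miR-192-5p. No dextromethorphan library overlapped a control library for any member, where 26% of the 366 microRNAs tested lay wholly above control. With the haemolysis index as a covariate, 0 of the 5 members and 1 of the 366 passed the test in this comparison. After caffeine alone miR-802-5p was 5.5-fold and miR-192-5p 2.23-fold higher than in control; both calls were lost when certain single libraries were left out. When caffeine had been given first, all 5 members were lower in every library than after dextromethorphan alone. Of the 366, 13.1% lay wholly below in that comparison. Among the 5 members 3 passed the test as lower, where 3.28% of the 366 did. The calls of miR-192-5p and miR-194-5p held whichever single library was left out. No call held without DEX2 and DEX3 together, where DEX1 alone stood for dextromethorphan. In that fit the log2 difference of miR-194-5p was -1.55 in place of -2.34. That of miR-192-5p was -1.28 in place of -1.71, and that of miR-802-5p -2.22 in place of -2.51.

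**Figure D1:**
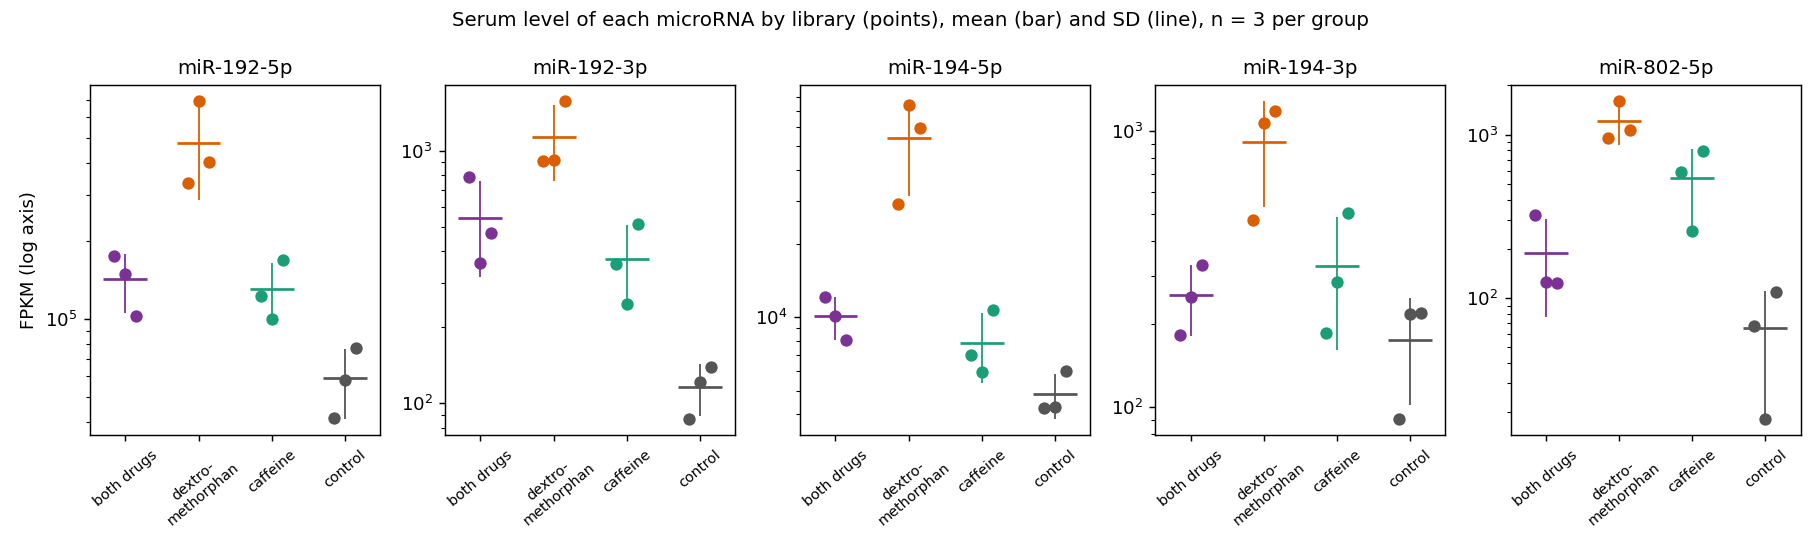
FPKM of each member (log axis, a separate scale per panel) in the 3 libraries of each group; points are libraries, horizontal bars are group means and vertical lines are SD. Dextromethorphan libraries lie above all control libraries in every panel, with miR-192-5p at 336051 to 694358 FPKM after dextromethorphan and 41518 to 77330 FPKM in control.

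miR-192-5p was the most abundant member in every library. It measured 174566, 149260 and 102331 FPKM in CAFDEX2, CAFDEX3 and CAFDEX6, 336051, 694358 and 402118 FPKM in DEX1, DEX2 and DEX3, 122309, 100089 and 168269 FPKM in CAF3, CAF4 and CAF5, and 41518, 58068 and 77330 FPKM in ctrl1, ctrl3 and ctrl5. Every treated library was above every control library, and every dextromethorphan library was above every library of the other groups; the both-drug and caffeine libraries overlapped. Taking each treatment on its own, 18% of the 366 microRNAs tested lay wholly above control after both drugs. This share was 26% after dextromethorphan and 26% after caffeine. miR-192-5p made up 1.0% of assigned reads on average after dextromethorphan and 0.124% in control. Among all names in a library it ranked 13 to 22 by FPKM after dextromethorphan and 44 to 59 in control.

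miR-194-5p, its cluster partner, measured 12112, 10071 and 8028 FPKM in the both-drug libraries, 29126, 73578 and 59531 FPKM in DEX1, DEX2 and DEX3, 6970, 5951 and 10700.4 FPKM in the caffeine libraries and 4234, 4276 and 6026 FPKM in control. Dextromethorphan libraries were again above all others and both-drug libraries above control, whereas CAF4 lay below ctrl5. These values rest on 168 to 718 reads per library.

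miR-802-5p had the widest range, 88.8 times between its lowest and highest library, and few reads. It measured 321, 126 and 123 FPKM in the both-drug libraries, 957, 1610 and 1061 FPKM in DEX1, DEX2 and DEX3, 588, 258 and 791 FPKM in the caffeine libraries and 67.9, 18.1 and 109 FPKM in ctrl1, ctrl3 and ctrl5. All treated libraries were above all control libraries, where for each treatment on its own 18% to 26% of the 366 lay wholly above control. Its reads numbered 1 to 3 per library in control, 2 to 7 after both drugs and 9 to 25 in the 2 single-drug groups. CAFDEX6 and ctrl5 held 3 reads each, so their order comes from the scaling to depth. The exact Poisson 95% interval of the single read in ctrl3 spans 0.459 to 101 FPKM, and that of the 9 reads in DEX3 spans 485 to 2014 FPKM; both cover counting error only. Its control mean of 65.2 FPKM was under the mean of 80 FPKM required over all libraries, so it entered the test through the treated groups.

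The 3p arms were scarce. miR-192-3p measured 787, 360 and 470 FPKM in the both-drug libraries, 913, 922 and 1576 FPKM after dextromethorphan, 354, 247 and 513 FPKM after caffeine and 86.4, 121 and 139 FPKM in control, from 4 to 18 reads. All its treated libraries were above control, which held 4 to 7 of its reads per library. For each treatment on its own, 18% to 26% of the 366 lay wholly above control. miR-194-3p measured 183, 251 and 328 FPKM in the both-drug libraries, 478, 1074 and 1179 FPKM after dextromethorphan, 186, 284 and 506 FPKM after caffeine and 90.5, 218 and 219 FPKM in control, from 4 to 16 reads. Only its dextromethorphan group was clear of control.

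FPKM is per length, so levels can be set in order within a library. In all 12 libraries miR-192-5p was above miR-194-5p, which was above the other members. Among the 3 scarce members, every control library gave the order miR-194-3p, miR-192-3p, miR-802-5p from the highest, with 4 reads for each 3p arm in ctrl1. Every caffeine library had miR-802-5p above miR-192-3p, with 10 reads for each in CAF4. The ranges of the 3 scarce members over the libraries of a group overlapped in the dextromethorphan, caffeine and control groups, and no pair of them kept a single order in all 3 dextromethorphan libraries. After both drugs miR-192-3p (360 to 787 FPKM) was above miR-194-3p (183 to 328 FPKM) and miR-802-5p (123 to 321 FPKM), which overlapped each other. These both-drug values rest on 6 to 18 reads for miR-192-3p, 4 to 8 for miR-194-3p and 2 to 7 for miR-802-5p.

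Dextromethorphan was compared with control to measure what the antitussive, a blocker of NMDA receptors, does alone. All 5 members passed limma (adjusted p under 0.05 with Benjamini-Hochberg adjustment over 366 microRNAs) as higher, where 11.5% of the 366 passed as higher and 0.546% as lower. Their groups did not overlap either, where 26% of the 366 lay wholly above control and 7.1% wholly below. The log2 differences on log2(FPKM + 40) were 2.99 ± 0.32 for miR-192-5p (SE; 7.95-fold, 95% interval 4.93 to 12.8, adjusted p = 1.9e-05) and 2.89 ± 0.44 for miR-192-3p (7.40-fold, 3.88 to 14.1, adjusted p = 0.000379). For miR-194-5p the difference was 3.39 ± 0.35 (10.5-fold, 6.25 to 17.5, adjusted p = 1.9e-05), and for miR-194-3p it was 2.11 ± 0.50 (4.32-fold, 2.06 to 9.07, adjusted p = 0.0175). miR-802-5p differed by 3.64 ± 0.53 (12.5-fold, 5.67 to 27.3, adjusted p = 0.00035). From the highest, miR-802-5p ranked 1, miR-194-5p ranked 2 and miR-192-5p ranked 5 among the 366, whose median was 0.47. The place of miR-802-5p depends on the pseudocount, since control holds 1 to 3 of its reads: at 4 times the pseudocount it differed by 2.60, below miR-194-5p at 3.35 and miR-192-5p at 2.99, and with voom on the recovered counts it differed by 4.35. Scaling each library by the median ratio to all libraries brought that median to 0.11, and the differences were then 2.58 for miR-192-5p, 2.98 for miR-194-5p and 3.34 for miR-802-5p, all still passing.

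Without DEX2 and DEX3, so that DEX1 alone stood for dextromethorphan and was assumed to vary like the other groups, 4 of the 5 members still passed limma, as did 18 of all 366 microRNAs. miR-192-5p then differed from control by 2.56 (adjusted p = 0.00442), miR-192-3p by 2.63 (adjusted p = 0.0206), miR-194-5p by 2.60 (adjusted p = 0.00442) and miR-802-5p by 3.35 (adjusted p = 0.0202). miR-194-3p differed by 1.33 and did not pass (adjusted p = 0.246), and it also missed the threshold without ctrl1, DEX2 or DEX3 singly (adjusted p = 0.0906, 0.0548 and 0.0783) and with quantile normalization (0.0642). When the haemolysis index, which moves with the groups, was entered as a covariate, 0 of the 5 members passed limma, 4 had an unadjusted p under 0.05, and 1 of all 366 microRNAs passed. The differences in that fit were 1.95 for miR-192-5p (adjusted p = 0.245), 2.24 for miR-192-3p (adjusted p = 0.631), 2.06 for miR-194-5p (adjusted p = 0.245), 0.80 for miR-194-3p (adjusted p = 0.900) and 3.24 for miR-802-5p (adjusted p = 0.465).

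Caffeine alone, a methylxanthine that blocks adenosine receptors, was compared with control. Limma passed 2 of the 5 members as higher, where 6.83% of the 366 passed as higher and 1.09% as lower. miR-802-5p differed by 2.46 ± 0.53 (SE; 5.5-fold, 95% interval 2.5 to 12.1, adjusted p = 0.0137) and miR-192-5p by 1.15 ± 0.32 (2.23-fold, 1.38 to 3.59, adjusted p = 0.0419), against a median of 0.19 over the 366. miR-192-3p (1.37, adjusted p = 0.0630), miR-194-5p (0.67, adjusted p = 0.242) and miR-194-3p (0.73, adjusted p = 0.409) did not pass. The groups did not overlap for miR-802-5p and both miR-192 arms, and 26% of the 366 lay wholly above control. The call of miR-192-5p was lost when CAF3, CAF4, CAF5, CAFDEX2, ctrl1, ctrl3 or DEX3 was left out singly (limma adjusted p = 0.0204 to 0.181 over the 12 libraries left out in turn). It was also lost with median-of-ratios scaling (adjusted p = 0.0833), quantile normalization (0.0900), miR-191a-5p left out of the total (0.0656), no filter (0.0790) or no trend (0.0908). That of miR-802-5p was lost without CAF5 (adjusted p = 0.0957), ctrl1 (0.0605) or ctrl3 (0.0869), and neither passed with the haemolysis covariate (0.310 for miR-192-5p and 0.10 for miR-802-5p).

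Both drugs were also compared with control. Limma passed 2 of the 5 members as higher, where 6.56% of the 366 passed as higher and 4.37% as lower. These were miR-192-5p, by 1.28 ± 0.32 (SE; 2.43-fold, 95% interval 1.51 to 3.91, adjusted p = 0.0296), and miR-192-3p, by 1.84 ± 0.44 (3.59-fold, 1.88 to 6.85, adjusted p = 0.0192). miR-194-5p (1.05, adjusted p = 0.0661), miR-194-3p (0.49, adjusted p = 0.536) and miR-802-5p (1.13, adjusted p = 0.180) did not pass, and the median over the 366 was 0.24. The groups overlapped for miR-194-3p and not for the other 4 members, where 18% of the 366 lay wholly above control. Both calls were lost without CAFDEX2, ctrl1 or ctrl3 and with the haemolysis covariate (adjusted p = 0.811 for miR-192-5p and 0.666 for miR-192-3p); that of miR-192-5p was also lost without CAFDEX3 (adjusted p = 0.103) and without the trend (0.0682). Without the filter on low values both missed the threshold (adjusted p = 0.0511 each). miR-194-5p passed without ctrl5, DEX1 or DEX2 (limma adjusted p = 0.0495, 0.0318 and 0.04995), and when the 2 groups compared were fitted alone (0.0370). Without DEX2 and DEX3 together its difference was still 1.05.

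**Figure D2:**
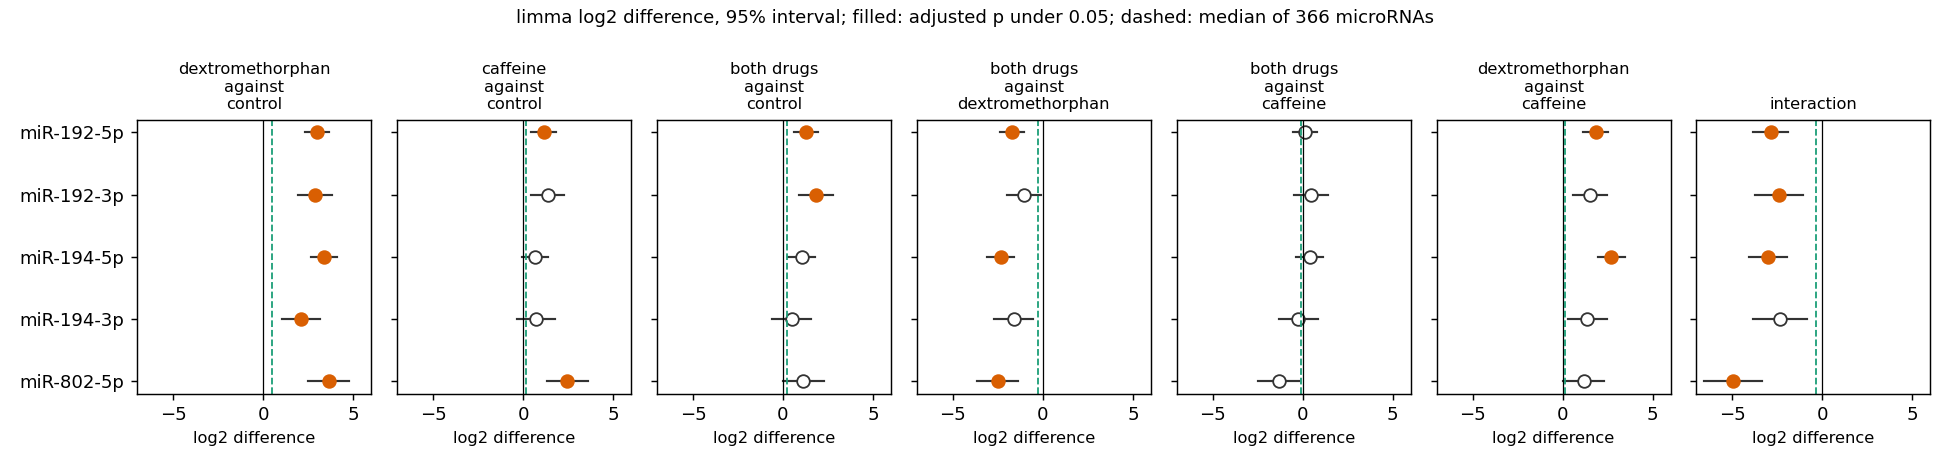
Limma log2 difference of each member in the 6 comparisons and the interaction, with 95% intervals; filled points passed an adjusted p under 0.05 and the dashed line is the median of the 366 microRNAs. All 5 points are filled for dextromethorphan against control, none for both drugs against caffeine, and the interaction of miR-802-5p lies farthest left at -4.97.

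The level after both drugs was set against each drug alone to measure what caffeine given first adds to dextromethorphan. Against dextromethorphan, all 5 members were lower in every both-drug library, where 13.1% of the 366 lay wholly below and 3.83% wholly above, and 3 passed limma as lower, where 3.28% did and 0.273% passed as higher. miR-194-5p was 0.198 times its level after dextromethorphan (95% interval 0.118 to 0.331, adjusted p = 0.00157), miR-192-5p 0.305 times (0.189 to 0.492, adjusted p = 0.00416) and miR-802-5p 0.175 times (0.0798 to 0.385, adjusted p = 0.0104). miR-192-3p (0.484 times, adjusted p = 0.251) and miR-194-3p (0.324 times, adjusted p = 0.109) did not pass. Without DEX2 and DEX3 these calls did not hold. DEX1 alone stood for dextromethorphan there, so lost power and dependence on these 2 libraries cannot be told apart. The log2 differences were then -1.28 for miR-192-5p, -1.55 for miR-194-5p and -2.22 for miR-802-5p. With single libraries left out, the calls of miR-192-5p and miR-194-5p held in all 12 fits (highest limma adjusted p = 0.0306 and 0.0175). The call of miR-802-5p was also lost without CAFDEX6 (adjusted p = 0.0576) or DEX2 alone (0.0555), and miR-194-3p passed without DEX1 (0.0339). With the haemolysis covariate miR-802-5p, miR-194-5p and miR-192-5p still passed as lower (limma adjusted p = 0.0255, 0.00337 and 0.0121).

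Against caffeine alone, limma passed 0 of the 5 members after both drugs and 0% of the 366 in either direction, with 22 of the 366 at an unadjusted p under 0.05; limma with voom weights on the recovered counts passed 0 as well. For all 5 members the both-drug and caffeine libraries overlapped, where 3.55% of the 366 lay wholly above caffeine and 7.38% wholly below. The ratio of both drugs to caffeine had a 95% interval of 0.676 to 1.76 for miR-192-5p (adjusted p = 0.930) and of 0.777 to 2.18 for miR-194-5p (adjusted p = 0.893). For miR-802-5p the interval was 0.181 to 0.872, with an unadjusted limma p of 0.0242 and an adjusted p of 0.786.

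The single drugs differed from each other for the abundant members. Dextromethorphan libraries had 6.57 times the miR-194-5p of caffeine libraries (95% interval 3.93 to 11, limma adjusted p = 0.000353) and 3.57 times the miR-192-5p (2.22 to 5.76, adjusted p = 0.00475). Limma passed these 2 members, where 2.46% of the 366 passed as higher and 0% as lower. miR-192-3p (2.87 times, adjusted p = 0.0947), miR-194-3p (2.60 times, adjusted p = 0.223) and miR-802-5p (2.27 times, 95% interval 1.03 to 4.97, adjusted p = 0.326) did not pass. Without DEX2 and DEX3, where DEX1 alone stood for dextromethorphan, neither call held. The log2 difference was then 1.93 in place of 2.72 for miR-194-5p and 1.40 in place of 1.84 for miR-192-5p. Neither passed with the haemolysis covariate (limma adjusted p = 0.127 for miR-194-5p and 0.595 for miR-192-5p).

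The interaction term measures how far the effect of dextromethorphan after caffeine departs from its effect alone, on the log2 scale. It was -4.97 ± 0.76 for miR-802-5p (SE, limma adjusted p = 0.00145), the lowest of all 366 microRNAs, whose median was -0.39. The miR-802-5p term rests on 1 to 3 reads per library in control and 2 to 7 after both drugs. Over the 11 other settings it ran from -5.69 to -3.57, so its place depends on the processing. The interaction was -3.01 ± 0.49 for miR-194-5p and -2.87 ± 0.46 for miR-192-5p (adjusted p = 0.00145 each), and -2.41 ± 0.62 for miR-192-3p (adjusted p = 0.0415). miR-194-3p, at -2.36 ± 0.71, did not pass (adjusted p = 0.0718). Thus 4 of the 5 members passed as lower, where 4.64% of the 366 did and 0% passed as higher. Without DEX2 and DEX3 the terms of miR-802-5p, miR-194-5p and miR-192-5p were -4.68, -2.22 and -2.43 and still passed (adjusted p = 0.0345 each), while that of miR-192-3p was -2.15 and did not (adjusted p = 0.104). The call of miR-192-3p was also lost without CAF3, CAF5, CAFDEX6, ctrl1, ctrl3 or DEX3 singly (highest adjusted p = 0.106), and with no filter (0.0829), median-of-ratios scaling (0.134), quantile normalization (0.158) or miR-191a-5p left out of the total (0.0532), and miR-194-3p passed without DEX1 (adjusted p = 0.0251). With the haemolysis covariate the term was -4.73 for miR-802-5p, -2.20 for miR-194-5p and -2.23 for miR-192-5p, and these 3 still passed (adjusted p = 0.0422, 0.0477 and 0.0422), while miR-192-3p did not (0.244).

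A ratio of 2 microRNAs within a library does not depend on the total to which FPKM are scaled. miR-192-5p was 14.4, 14.8 and 12.7 times miR-194-5p in the both-drug libraries, 11.5, 9.44 and 6.75 times in DEX1, DEX2 and DEX3, 17.5, 16.8 and 15.7 times in the caffeine libraries and 9.81, 13.6 and 12.8 times in control. Caffeine libraries had the highest ratios, without overlap with any other group, and DEX2 and DEX3 the lowest. The ratio differed among the 4 groups by exact permutation of all 369600 assignments (p = 0.0148, adjusted 0.0296 over 4 ratios). That call was lost when any caffeine or both-drug library, or DEX2, was left out singly (adjusted exact permutation p up to 0.0652), and without DEX2 and DEX3 (0.121). Between pairs of groups, 3 libraries against 3 cannot give a p below 0.1, and the 24 such comparisons reached no adjusted p under 0.218.

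miR-122-5p, the dominant hepatocyte microRNA, did not follow the members within the dextromethorphan group. As a percentage of miR-122-5p FPKM, miR-192-5p was 3.80%, 4.39% and 2.25% in the both-drug libraries, 4.91%, 24.0% and 15% in DEX1, DEX2 and DEX3, 2.55%, 3.28% and 3.44% in the caffeine libraries and 4.22%, 7.31% and 3.44% in control. DEX1 lay within the control range and DEX2 and DEX3 above every other library. miR-122-5p itself was 6.84e+06 FPKM in DEX1, 2.89e+06 FPKM in DEX2 and 2.68e+06 FPKM in DEX3, against 7.94e+05 to 2.25e+06 FPKM in control. This ratio differed among the groups (exact permutation p = 0.0249, adjusted 0.0332), as did that of miR-194-5p to miR-122-5p, which was 0.426%, 2.54% and 2.22% in DEX1, DEX2 and DEX3 and 0.268% to 0.539% in control (p = 0.0145, adjusted 0.0296). Both calls were lost when any caffeine or both-drug library, or ctrl1, was left out singly, and that of miR-192-5p also without DEX2 or DEX3 singly. The highest adjusted exact permutation p was 0.114 for miR-192-5p and 0.0652 for miR-194-5p; without DEX2 and DEX3 together it was 0.384 for miR-192-5p and 0.121 for miR-194-5p. Without DEX2 and DEX3 the mean log2 difference between dextromethorphan and control was 0.05 in place of 1.35 for miR-192-5p over miR-122-5p, and 0.10 in place of 1.76 for miR-194-5p over miR-122-5p. For miR-192-5p over miR-194-5p it was -0.05 in place of -0.41.

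miR-192-5p was also set against miR-451-5p of red cells. The ratio was 34.4, 31.7 and 33.9 in the both-drug libraries, 69.0, 94.1 and 48.9 in DEX1, DEX2 and DEX3, 47.1, 33.4 and 47.3 in the caffeine libraries and 19.4, 24.0 and 58.4 in control. Only ctrl5 kept the control range from lying below the dextromethorphan range, and the groups did not pass the test (exact permutation p = 0.0834). Without ctrl5 they did (adjusted exact permutation p = 0.00286), with a log2 difference of 1.66 in place of 1.18 between dextromethorphan and control.

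**Figure D3:**
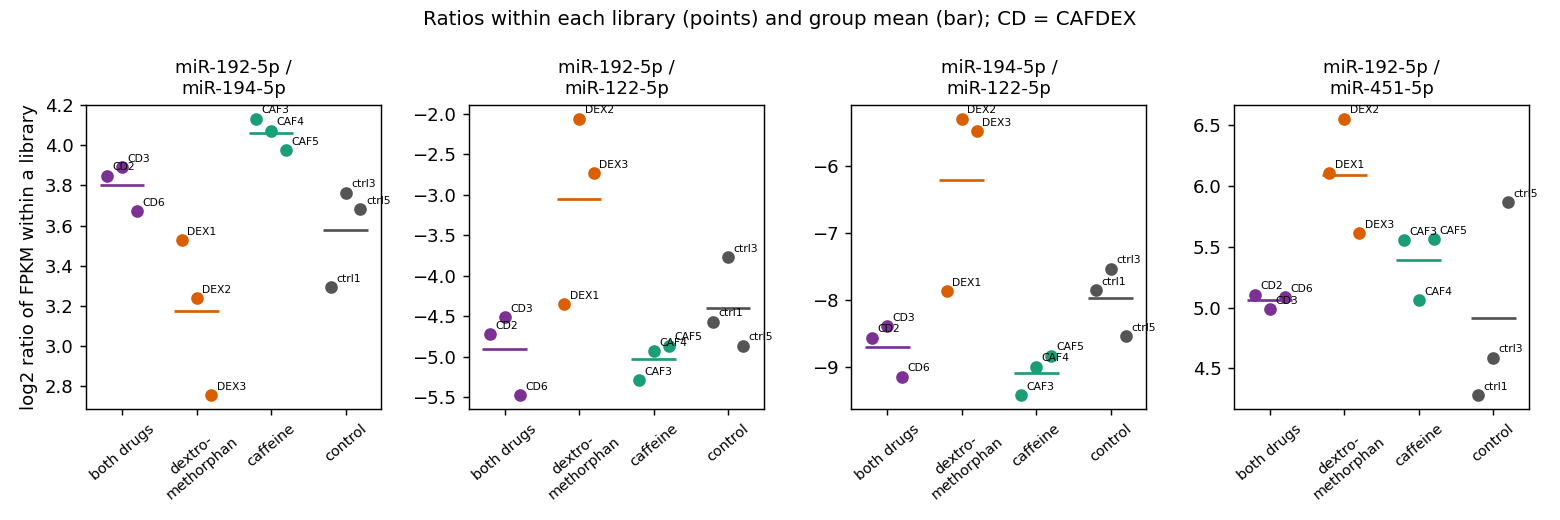
Log2 ratios of FPKM within each library for 4 pairs of microRNAs; points are libraries and bars are group means of 3. DEX2 and DEX3 stand above all other libraries in both ratios to miR-122-5p, while DEX1 lies within the control range.

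The arms of each hairpin were compared without a test, because most 3p values rest on few reads. miR-192-5p was 218 to 415 times miR-192-3p in the both-drug libraries, 255 to 753 times after dextromethorphan, 328 to 406 times after caffeine and 479 to 555 times in control. miR-194-5p was 24.5 to 66.1 times miR-194-3p in the both-drug libraries, 50.5 to 68.5 times after dextromethorphan, 20.9 to 37.5 times after caffeine and 19.6 to 46.8 times in control. Since the miR-194-5p value sums both copies and miR-194-3p belongs to the chromosome 1 hairpin, its ratio is not that of the arms of 1 hairpin. miR-802-3p, the other arm of the miR-802 hairpin and no member, had 0 to 9 reads and was at 0 in CAFDEX6, DEX3 and ctrl1. miR-802-5p was 7.67 times miR-802-3p in CAFDEX2 and 1.10 times in CAFDEX3, 2.19 times in DEX1 and 8.21 times in DEX2, 4.16 to 10.95 times in the caffeine libraries, 0.365 times in ctrl3 and 1.10 times in ctrl5. The 5p arm was above the 3p arm by far in the miR-192 hairpin, and not in every library of the miR-802 hairpin.

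Profiles over the 12 libraries were compared by the root-mean-square (RMS) difference of log2(FPKM + 40), each centred on its own mean. Outside the members, the same 4 microRNAs of the miR-200 family, which mark epithelium, came nearest to miR-192-5p, miR-194-5p and miR-802-5p among 361 names. miR-429 was nearest each time, at 0.32 from miR-192-5p, 0.30 from miR-194-5p and 0.60 from miR-802-5p, followed by miR-200b-3p and then, in an order that varied, miR-200a-3p and miR-141-3p. Next after these 4 came miR-141-5p for miR-192-5p (0.57) and miR-200b-5p for miR-194-5p (0.52). For miR-802-5p the next was the red-cell microRNA miR-451-3p, at 0.83, with miR-141-3p at 0.78. For comparison, miR-192-5p lay 0.38 from miR-194-5p and 0.70 from miR-802-5p, and the median distance of all 361 names from miR-192-5p was 1.15. The points share their libraries and totals, so these distances are descriptions.

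**Figure D4:**
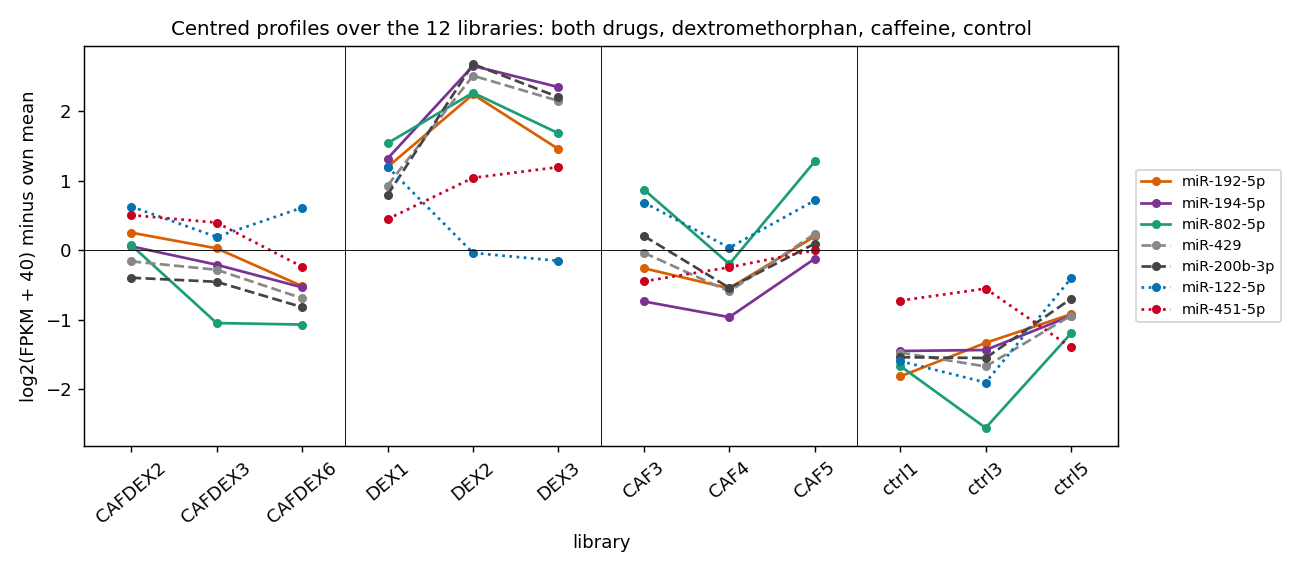
Centred log2(FPKM + 40) profiles of 3 members, the 2 nearest microRNAs (miR-429 and miR-200b-3p) and, dotted, miR-122-5p and miR-451-5p over the 12 libraries. The members and the miR-200 microRNAs peak in DEX2, whereas miR-122-5p is highest in DEX1 within that group.

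The companions of the members in epithelium, liver and kidney were followed as lists. Of 7 epithelial microRNAs tested, limma passed 6 as higher after dextromethorphan than in control, with a list median of 2.7 against 0.47 over all 366, of which 11.5% passed as higher. miR-429 differed by 3.23 ± 0.39 (SE, adjusted p = 5.3e-05) and miR-200b-3p by 3.16 ± 0.43 (adjusted p = 0.00016). Both come from the same cluster, whose microRNAs help maintain the epithelial state. miR-31a-5p was the member that did not pass (0.66, adjusted p = 0.181). By limma, 0 of the 7 passed after caffeine (4 at an unadjusted p under 0.05) and 0 after both drugs (2 at an unadjusted p under 0.05) against control. Of the same 7, 5 passed as lower after both drugs than after dextromethorphan, where 3.28% of the 366 did. With a negative interaction 5 of the 7 passed, where 4.64% of the 366 did. Without DEX2 and DEX3, DEX1 alone stood for dextromethorphan, and fewer of the 7 passed in these 3 comparisons. The list median was then 1.71 in place of 2.7 for dextromethorphan against control. For both drugs against dextromethorphan it was -1.13 in place of -2.19, and for the interaction -1.87 in place of -2.72.

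Of 6 hepatocyte microRNAs, 2 passed as higher after dextromethorphan, with a list median of 0.29: miR-122-5p (1.64 ± 0.39, SE, limma adjusted p = 0.0175) and miR-101a-3p (1.09, adjusted p = 0.0446). Over all 366, 11.5% passed as higher there. After caffeine miR-122-5p alone of the 6 passed (1.78 ± 0.39, adjusted p = 0.0137, where 6.83% of the 366 passed as higher). After both drugs 1 of the 6 passed as higher than control, again miR-122-5p (1.78 ± 0.39, adjusted p = 0.0156, where 6.56% of the 366 did). Between both drugs and dextromethorphan miR-122-5p differed by 0.14 ± 0.39 and did not pass (adjusted p = 0.873). Of 7 kidney microRNAs, 0 passed limma after dextromethorphan and 2 had an unadjusted p under 0.05. Their list median was 0.76, and 0.63 when DEX1 alone stood for dextromethorphan. Of these 7, miR-10b-5p passed after caffeine (1.03, adjusted p = 0.0493).

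Markers of red cells and striated muscle were followed in the same comparisons. Of all 366, 11.5% passed limma as higher than control after dextromethorphan, 6.83% after caffeine and 6.56% after both drugs. Of 4 red-cell microRNAs tested, 3 passed limma as higher after dextromethorphan, among them miR-451-5p (1.79 ± 0.33, SE, adjusted p = 0.00226), with a list median of 1.85, and 0 passed without DEX2 and DEX3. Against control, 0 of the 4 passed after caffeine (1 at an unadjusted limma p under 0.05) and 1 after both drugs. Their summed FPKM was 4242 to 7272 after both drugs, 6786 to 13915 after dextromethorphan, 3936 to 6074 after caffeine and 2582 to 3430 in control, with none of the 4 at 0 in any library. Of 4 striated-muscle microRNAs, 1 passed after dextromethorphan, 3 after caffeine and 2 after both drugs, all as higher than in control. Their list median after dextromethorphan was 1.39, and 0.24 when DEX1 alone stood for it. The part of red cells and muscle in the members' values was not tested, beyond the covariate fit above.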

How the data were processed

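Small RNA was measured by sequencing in 12 serum libraries, from RNA of 200 uL serum (miRNeasy Micro kit) and the QIAseq miRNA kit, per the labels' protocols. The authors deposited FPKM per mature microRNA locus. The submitters' processing notes name build rn6, DESeq2 1.20.0, featureCounts, Subread 2.0.1, STAR 2.7.10a and cutadapt 3.7; their roles, and whether molecular indices were collapsed, are not given in the sources used here. FPKM times length summed to the same value in each column, so each value is relative to the listed microRNAs, and a rise of an abundant one lowers the rest. Values were whole multiples of 0.01 read in 100% of cases (tolerance 0.0001 of a step), which gave library totals; 65.4% to 75.0% were whole reads, so some reads were divided among loci. Counts were whole in 12 libraries for miR-192-3p, miR-194-3p and miR-802-5p, in 10 for miR-194-5p and in 4 for miR-192-5p. On 22 bases, 1 read was worth 17.3 to 113 FPKM.

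Rows of the same name were summed (69 names in 153 rows), and 366 of 752 names were tested, those with a mean of 80 FPKM or more that were above 0 in 3 or more libraries; 203 names were at 0 throughout. All 5 members passed. The pseudocount was 40 FPKM, and fold changes on that scale understate low microRNAs. limma 3.58.1 (R 4.3.3) fitted the 4 groups together with a mean-variance trend (8 residual and 7.58 prior degrees of freedom) and Benjamini-Hochberg adjustment, two-sided, with a threshold of 0.05. Within-library ratios were tested by exact permutation, where both microRNAs had at least 10 reads in every library. The code was tested on simulated data. Python 3.11.15, numpy 2.4.6, pandas 2.3.3, scipy 1.17.1 and matplotlib 3.10.9 were used. The rule for naming took the 5 members, for each of 3 members the 5 microRNAs of nearest profile, and the tissue lists. Members, lists and alternatives were chosen with earlier results of these data known. Alternatives covered the pseudocount, filter, scaling, voom, trend, samples fitted, separate loci, a haemolysis covariate and libraries left out.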

Additional observations from a re-analysis of the deposited data

Results flagged for a closer look

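The effect of dextromethorphan given after caffeine was set against its effect alone, by limma's interaction term over the 4 groups of 3 libraries. It differed for 4 members, all as lower, where 4.64% of the 366 microRNAs passed as lower and 0% as higher. The difference was -2.87 for miR-192-5p, -2.41 for miR-192-3p, -3.01 for miR-194-5p and -4.97 for miR-802-5p on the log2 scale. The adjusted p was 0.00145 for miR-192-5p, miR-194-5p and miR-802-5p and 0.0415 for miR-192-3p. The miR-192-3p term missed the threshold in 6 of 11 other settings, among them both other scalings, and in 6 of the 12 fits with 1 library left out; the terms of the other 3 passed in all of these. In each case the dextromethorphan group was wholly above control, as it was for 26% of the 366. Both drugs did not pass against caffeine, where 0% of the 366 passed in either direction. The miR-802-5p values rest on 1 to 25 reads per library.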

How the results depend on the processing

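No result changed direction and passed in any alternative. With the haemolysis index as covariate, the number of the 5 members passing was 0 after dextromethorphan (5 in the reported fit), 0 after caffeine (2) and 0 after both drugs (2) against control, and 0 for dextromethorphan against caffeine (2). At an unadjusted limma p under 0.05 these counts were 4, 1, 0 and 2. Of all 366 microRNAs, 1, 5, 1 and 0 passed in these comparisons with the covariate, against 44, 29, 40 and 9 in the reported fit. For caffeine the number of members passing was 1 without the filter, with median-of-ratios scaling, with quantile normalization, with miR-191a-5p left out of the total and without the trend. For both drugs it was 0 without the filter and 1 without the trend. Leaving out each library gave 4 to 5 members for dextromethorphan, 0 to 2 for caffeine, 0 to 3 for both drugs, 2 to 4 for both drugs against dextromethorphan and 3 to 5 for the interaction. Without DEX2 and DEX3, the calls of both drugs against dextromethorphan and of dextromethorphan against caffeine did not hold. DEX1 alone stood for dextromethorphan in that fit. The causes were not tested.

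Between dextromethorphan and control the mean log2 ratio was -0.58 to -0.20 for miR-192-5p over miR-194-5p, 0.86 to 2.00 for miR-192-5p over miR-122-5p, 1.30 to 2.59 for miR-194-5p over miR-122-5p and 0.86 to 1.66 for miR-192-5p over miR-451-5p when single libraries were left out, and without DEX2 and DEX3 it was -0.051 for miR-192-5p over miR-194-5p, 0.052 for miR-192-5p over miR-122-5p and 0.10 for miR-194-5p over miR-122-5p. For single members, 379 values stayed on their side of the threshold under the other settings, 32 lost the call and 4 gained it. With single libraries left out, 387 stayed, 28 lost the call and 5 gained it. For the 4 ratios, 23 calls were lost and 1 was gained with single libraries left out. No paired analysis was possible because the column names carry numbers that do not match those of the sample titles. The 3p arms and miR-802-5p are limited by depth.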
